A study of Mus musculus with 16 samples.

Results

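The genes described here are 10 imprinted genes linked to muscle stem cells: Dlk1, Meg3, Dio3, H19, Grb10, Plagl1, Peg3, Mest, Peg10 and Sgce. They were picked by symbol, with earlier results of these data known, and no cutoff on a measured value was applied. All 10 were found among 49943 annotated genes on the autosomes, X and Y. Each was read over its gene record, the span from the first to the last annotated base, plus 10 kb either side. Muscle stem cells of C57BL/6 mice, taken from skeletal muscle, were labelled quiescent (QSC) or activated (ASC). The labels give no age, no isolation method and no means of activation. Chromatin carrying H3K4me3 or H3K27me3 was immunoprecipitated in 2 replicates per state and mark, each with an input, 16 samples in all. The values were peak lists, each pooling both replicates of a group. Differences between QSC and ASC below therefore have no replicate error and no test. The labels do not say whether replicates came from separate animals. Coordinates are mm10.

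Imprinted genes are expressed mainly from the copy inherited from a given parent, and the silent copy is set apart by DNA methylation at a control region or by repressive histone marks. H3K4me3 lies at starts of active or poised genes, and H3K27me3, written by Polycomb repressive complex 2, covers silenced ones. Several imprinted genes restrain growth or keep stem cells out of cycle, and the Dlk1, H19 and Peg3 loci have been studied in satellite cells, the stem cells of skeletal muscle. The peak lists do not separate the parental alleles. An overlap of peaks of both marks therefore does not show that they share an allele, a nucleosome or a cell, and in bulk chromatin a mark in fewer cells and less mark per cell cannot be told apart.

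The upstream sequences of 4 members and both starts of Mest are shown because the results turn on which mark lies at each start. They are the 250 bases before the start in RefSeq (GRCm38.p6, the assembly whose coordinates mm10 shares), 5′ to 3′ on the strand of the gene, with CpG dinucleotides in capitals.
Meg3, chr12:109540746-109540995, plus strand: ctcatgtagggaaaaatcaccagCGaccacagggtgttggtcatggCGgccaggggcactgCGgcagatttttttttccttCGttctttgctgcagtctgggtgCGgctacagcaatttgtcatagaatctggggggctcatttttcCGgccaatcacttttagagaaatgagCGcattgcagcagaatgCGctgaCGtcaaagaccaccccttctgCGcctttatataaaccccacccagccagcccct
Dlk1, chr12:109452573-109452822, plus strand: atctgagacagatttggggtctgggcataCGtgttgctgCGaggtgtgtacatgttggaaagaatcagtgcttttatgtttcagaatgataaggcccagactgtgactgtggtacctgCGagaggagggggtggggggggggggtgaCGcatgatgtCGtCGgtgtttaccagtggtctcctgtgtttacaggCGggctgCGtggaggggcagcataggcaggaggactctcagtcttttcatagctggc
Dio3, chr12:110278980-110279229, plus strand: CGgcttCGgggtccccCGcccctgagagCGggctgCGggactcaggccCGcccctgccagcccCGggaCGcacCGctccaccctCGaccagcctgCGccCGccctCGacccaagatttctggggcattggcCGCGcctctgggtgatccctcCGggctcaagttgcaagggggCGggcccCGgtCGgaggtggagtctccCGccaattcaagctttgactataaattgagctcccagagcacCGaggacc
Grb10, chr11:12037421-12037670, minus strand: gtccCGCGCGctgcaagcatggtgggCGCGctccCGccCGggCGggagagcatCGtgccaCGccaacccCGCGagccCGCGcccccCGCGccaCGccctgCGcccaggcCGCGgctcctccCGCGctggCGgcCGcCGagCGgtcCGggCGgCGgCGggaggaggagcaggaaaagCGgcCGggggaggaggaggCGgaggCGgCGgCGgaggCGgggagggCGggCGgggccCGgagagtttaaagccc
Mest upstream start, chr6:30733256-30733505, plus strand: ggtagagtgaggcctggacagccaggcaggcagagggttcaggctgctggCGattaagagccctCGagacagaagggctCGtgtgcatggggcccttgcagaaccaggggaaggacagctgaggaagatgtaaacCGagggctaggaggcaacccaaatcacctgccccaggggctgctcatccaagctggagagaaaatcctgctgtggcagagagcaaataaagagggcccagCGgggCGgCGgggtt
Mest downstream start, chr6:30737800-30738049, plus strand: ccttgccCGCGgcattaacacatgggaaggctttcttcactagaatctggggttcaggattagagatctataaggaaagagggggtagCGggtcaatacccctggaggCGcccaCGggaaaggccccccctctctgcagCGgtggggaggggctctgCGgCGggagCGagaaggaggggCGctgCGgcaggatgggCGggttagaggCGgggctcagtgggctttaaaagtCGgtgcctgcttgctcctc

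These sequences span a wide range of CpG content. The Grb10 sequence holds 40 CpG, more than 98.7% of the 32850 mouse sequences of the same length in that table, whose median is 6. Dio3 holds 21, Meg3 10, Dlk1 8, and the upstream and downstream starts of Mest 7 and 14. Of the members not shown, Plagl1 has 19 at its start and Peg3 8. A second Grb10 start, at 12027971, has 8 CpG, and a second Meg3 start, at 109545398, has 0. RefSeq start entries were matched for 7 of the 10 members, and none is printed for H19, Peg10 or Sgce.

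Each sequence was searched on both strands for TGCCGC (the core hexamer bound by ZFP57, a zinc finger protein that maintains imprints), for the E-box CAGCTG bound by myogenic factors, and for TATAAA, the TATA box. The hexamer TGCCGC occurred 2 times before the downstream start of Mest and 1 time each at Meg3 and Plagl1, and 8.68% of all sequences hold it. TATAAA occurred 1 time at Dio3 and 2 times at Meg3, where the matches lie on opposite strands and share bases, and 12.4% of all sequences hold it. CAGCTG occurred 1 time, before the upstream start of Mest, and in 13% of all sequences. These are matches of letters in a window, not measured binding.

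H3K4me3 narrow peaks were present at the same 8 members in QSC and in ASC, with Dlk1 and Dio3 the members lacking them. A narrow peak in the window counted as a call, and the share of all annotated genes called this way was 39.0% in QSC and 41.1% in ASC. Among the 21887 protein-coding genes it was 62.7% and 65.2%. From the broad H3K4me3 lists, which hold many weak peaks, all 10 members were called in both states, as were 84.8% of all genes in QSC and 52.4% in ASC. By narrow peaks no member was called in QSC only or in ASC only, against 0.647% and 2.82% of all genes. Within 1 kb of an end of the gene record the calls were Meg3, H19, Grb10, Plagl1, Peg3, Peg10 and Sgce in both states, 7 of 10, beside 28.9% of all genes in QSC and 30.8% in ASC. Of protein-coding genes, 53.0% in QSC and 55.7% in ASC had this end call. No member had H3K4me3 at an end in a single state, against 0.523% of all genes in QSC only and 2.44% in ASC only. Mest was absent from that count because its peaks lie at the downstream start, inside the record.

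H3K27me3 was called at 8 members in QSC and 9 in ASC, where broad peaks had to cover at least 500 bp of the window. The same call was made at 63.0% of all genes in QSC and 62.6% in ASC, so a call over windows of this size was common. Peg3 was called in QSC only, against 6.74% of all genes, and H19 and Mest in ASC only, against 6.32%. The highest −log10 q of the broad peaks behind these single-state calls was 0.67, at H19. The broad H3K27me3 lists hold many weak peaks, with a median −log10 q of 0.42 in QSC and 0.38 in ASC. With the narrow lists, whose medians were 5.47 and 6.04, the called members were Dlk1, Dio3 and Grb10 in QSC and these with Meg3 in ASC. At a −log10 q of at least 5, the single broad call left among the members was Dio3 in ASC. The background of the narrow lists was 23.7% in QSC and 30.8% in ASC, and Meg3 was the single member called in ASC only, against 9.66% of all genes. None was called in QSC only by narrow peaks, against 2.52%.

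The members thus fell into groups by their calls at the record ends. Dlk1 and Dio3 had H3K27me3 without H3K4me3 in both states, as did 21.8% of all genes. H19, Plagl1, Peg3, Peg10 and Sgce had H3K4me3 without H3K27me3 in both states, as did 21.1%. Meg3 and Grb10 had all 4 calls, a pattern of 4.34% of genes. The QSC H3K27me3 call of Meg3 came from the far end of its record, not from its start. Mest had H3K27me3 in ASC only, a pattern of 5.73%. At the ends H3K27me3 was called at Dlk1, Meg3, Dio3 and Grb10 in QSC, against 32.7% of all genes, and at these with Mest in ASC, against 35.5%. The ASC-only end call of Mest compares with 7.85% of all genes, and 4.98% of genes, with no member among them, had such a call in QSC only. Of the other imprinted genes, Begain, Cdkn1c, Kcnq1ot1, Ndn, Phactr2 and Phlda2 had the same 4 calls as Meg3 and Grb10.

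**Figure D1:**
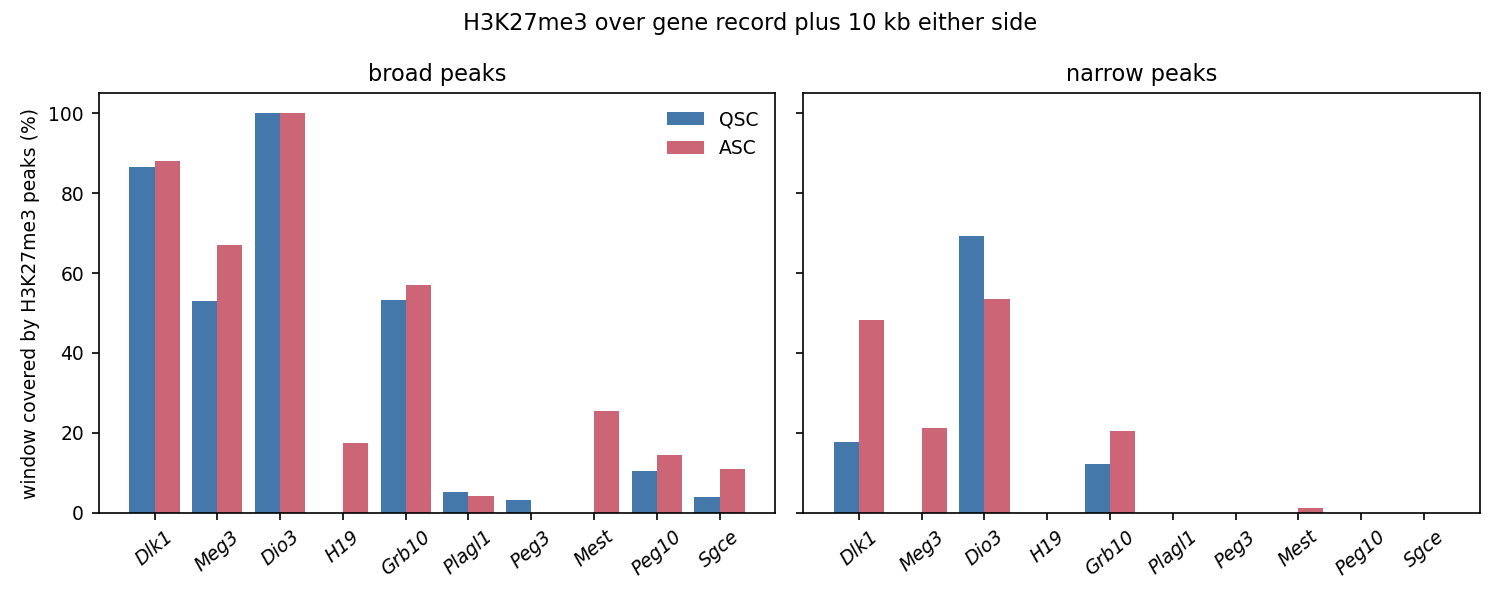
Share of each member's window (gene record plus 10 kb either side, in percent) covered by H3K27me3 broad peaks (left) and narrow peaks (right), with 1 bar per state from a pooled list. Dio3, Dlk1, Meg3 and Grb10 have the tallest bars in the left panel, and in the right panel Meg3 has a bar in ASC and none in QSC.

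In the Dlk1 to Dio3 cluster on chromosome 12, Dio3 and Dlk1 had the most H3K27me3 of the members in both states, and Meg3 came next in ASC, while in QSC Grb10 was level with it by broad peaks and above it by narrow ones. Dlk1 encodes a paternally expressed transmembrane protein that restrains adipocyte differentiation and acts in muscle growth, Meg3 is the maternally expressed long noncoding RNA of the cluster, and Dio3 encodes the deiodinase that inactivates thyroid hormone. Broad peaks covered 86.5% of the Dlk1 window in QSC and 88.1% in ASC, 53.1% and 67.0% of the Meg3 window, and 100% of the Dio3 window in both states. Narrow peaks covered 17.7% of the Dlk1 window in QSC and 48.2% in ASC. They covered 0% and 21.3% at Meg3, and 69.2% and 53.6% at Dio3. Dlk1 and Meg3 thus had the higher narrow coverage in ASC and Dio3 the higher in QSC.

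Dlk1 (chromosome 12, 109452485 to 109463336) had its start at 109452823 inside an H3K27me3 narrow peak in both states. That peak was 1127 bp long with a fold enrichment over background of 5.17 in QSC, and 7571 bp with a fold of 7.04 in ASC. Folds are the authors' values within a list and give no change between lists, here and below. In its list 69.1% of narrow peaks had a lower fold than the QSC peak and 94.3% than the ASC peak. The nearest H3K4me3 narrow peak in either state was that of Meg3, 87480 bp away in QSC and 88314 bp in ASC. The H3K4me3 broad lists held a weak peak at Dlk1 in each state, of 881 bp with a fold of 1.70 in QSC and 366 bp with a fold of 2.12 in ASC.

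Dio3 (chromosome 12, 110279230 to 110281097) lay under H3K27me3 throughout. The narrow peak over its start was 4951 bp in QSC, with a fold of 8.61, and 4922 bp in ASC, with a fold of 13.02. The ASC fold was above that of 99.8% of narrow peaks in its list, and the QSC fold above 97.9%. The broad peak over the same start ran for 49995 bp in QSC but for 28436 bp in ASC, and both also covered the antisense gene Dio3os and Mir1247. The nearest H3K4me3 narrow peak to the Dio3 start was 166829 bp away in QSC and 166781 bp in ASC. In the broad H3K4me3 lists the start lay inside a weak ASC peak of 2177 bp, with a fold of 1.62, and the nearest QSC peak was 1240 bp away with a fold of 1.84. The Dio3 start was thus under H3K27me3 in both states, by broad and by narrow peaks.

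Meg3 (chromosome 12, 109540996 to 109571729) had a start whose peaks of both marks differed between the lists. In QSC its start lay inside an H3K4me3 peak of 1868 bp, from 109540303 to 109542170, with a fold of 7.74. In ASC the H3K4me3 peak was 593 bp, from 109541137 to 109541729, with a fold of 3.97, and began 141 bp past the start. Of the peaks in its list 32.6% had a lower fold than the QSC peak and 3.54% a lower fold than the ASC peak. The ASC peak lay wholly within the bounds of the QSC peak.

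The Meg3 start lay under H3K27me3 peaks in the ASC lists and under none in the QSC lists. In ASC a broad peak of 55229 bp, from 109489457 to 109544685, with a fold of 3.24 and a −log10 q of 4.30, ran over the start. A narrow peak of 6906 bp, from 109535210 to 109542115, with a fold of 6.50 and a −log10 q of 18.7, also covered it. In QSC the nearest broad peak ended 1982 bp upstream and the nearest narrow peak 28543 bp away. The H3K27me3 call of Meg3 at a record end in QSC came from the far end of the record, where a broad peak of 7839 bp also covers Mir770 and reaches Rtl1. The ASC H3K4me3 peak and the ASC H3K27me3 peaks of both lists overlapped, and in QSC no H3K27me3 peak overlapped the narrow H3K4me3 peak. The broad H3K4me3 lists held a peak over the Meg3 start in both states, with a fold of 3.41 in QSC and 2.05 in ASC, and the ASC over QSC log2 ratio of lengths was then −0.84 instead of −1.66.

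**Figure D2:**
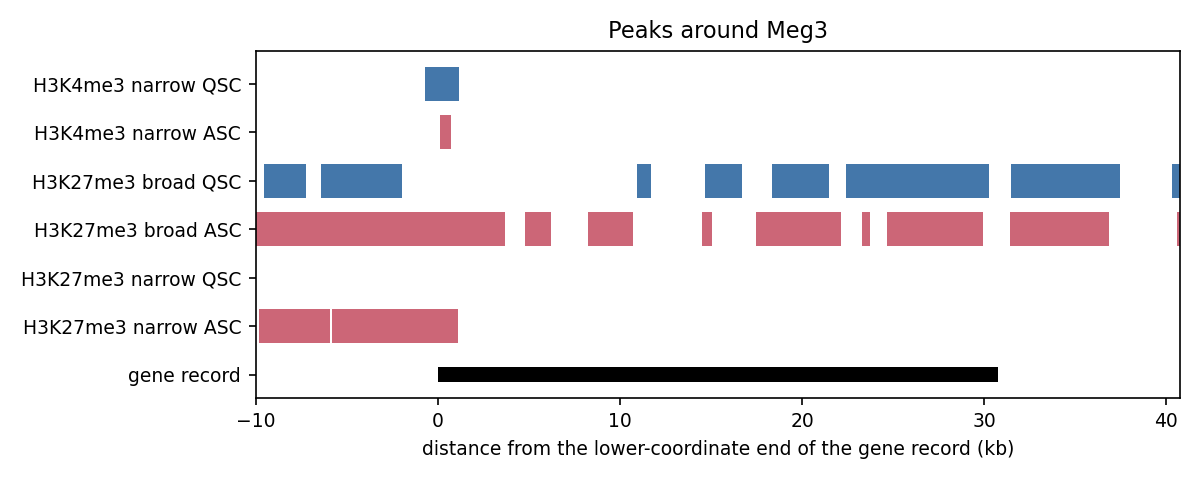
Peaks of each mark, list and state over Meg3 and 10 kb either side (x axis in kb from the annotated start, which is the lower-coordinate end; 1 row per list, with blocks drawn to scale). The H3K4me3 block is 1868 bp wide in QSC and 593 bp wide in ASC, and H3K27me3 blocks cross the start in the ASC rows only.

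An H3K4me3 domain (narrow peaks joined where no more than 1 kb apart) was present at either record end in both states at 14174 genes. The longest such domain was shorter in ASC at 9.70% of them, Meg3 and Peg3 included. H3K27me3 at either end in ASC and at neither in QSC, by broad and by narrow peaks, was found at 1.07% of these genes. In this count the marks could lie at different ends. It held 0 of the 7 members with a domain at an end, since the far end of Meg3 had its QSC broad peak. A count at annotated starts was added after the values at Meg3 were seen. There were 11029 genes with H3K4me3 at a listed start in both states, 5 of them members (Meg3, Grb10, Plagl1, Peg3 and Mest). Of the 11029, 724 (6.56%) had H3K27me3 there in ASC only by broad peaks, Meg3 and Mest among them. By broad and narrow peaks together there were 134 (1.21%), with Meg3 the single member among the 5. Of these, 61 (0.553%) also had the shorter H3K4me3 domain in ASC, again with Meg3 the single member. A shorter H3K4me3 domain alone was found at 9.45% of the 11029 genes, Meg3 and Peg3 among them. When the lists were cut to equal numbers of peaks, the ASC H3K4me3 peak of Meg3 dropped out and the gene was called in QSC only.

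Between Dlk1 and Meg3, a gap of 77659 bp, H3K27me3 broad peaks covered 82.6% in QSC and 94.6% in ASC. Narrow peaks covered 10.2% of the gap in QSC, in 7 peaks, and 52.4% in ASC, in 17 peaks. The nearest 10 kb upstream of the Meg3 start had 0% narrow coverage in QSC and 96.8% in ASC, and the first 10 kb past it 0% and 11.2%. The Meg3 record itself had 0% narrow coverage in QSC and 3.64% in ASC, so the narrow peaks near Meg3 in ASC lay mostly upstream of the gene. Broad peaks were spread over both sides, covering 13809 bp of the 30734 bp Meg3 record in QSC and 18439 bp in ASC. The ASC lists covered more of the genome than those of QSC, with 517 Mb against 455 Mb by broad and 88.4 Mb against 53.8 Mb by narrow H3K27me3 peaks, and the part of this in the values at Meg3 was not tested.

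The stretch from Meg3 to Dio3, 707500 bp with the noncoding genes Rian and Mirg and a large group of miRNAs, had the lower total coverage in ASC. Single 10 kb bins within it differed in both directions. Broad coverage there was 82.9% in QSC and 75.2% in ASC, and narrow coverage 19.7% and 18.0%. Of 61 miRNA records from the Meg3 start to the Dio3 end, broad H3K27me3 peaks covered 54 in QSC and 50 in ASC, and narrow peaks 14 and 12. No H3K4me3 narrow peak overlapped any of the 61 in either state. H3K27me3 over Rian covered 83.7% of the window in QSC and 73.3% in ASC, over Mirg 97.4% and 89.7%, and over Rtl1, the antisense retrotransposon-derived gene, 78.1% and 81.2%.

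**Figure D3:**
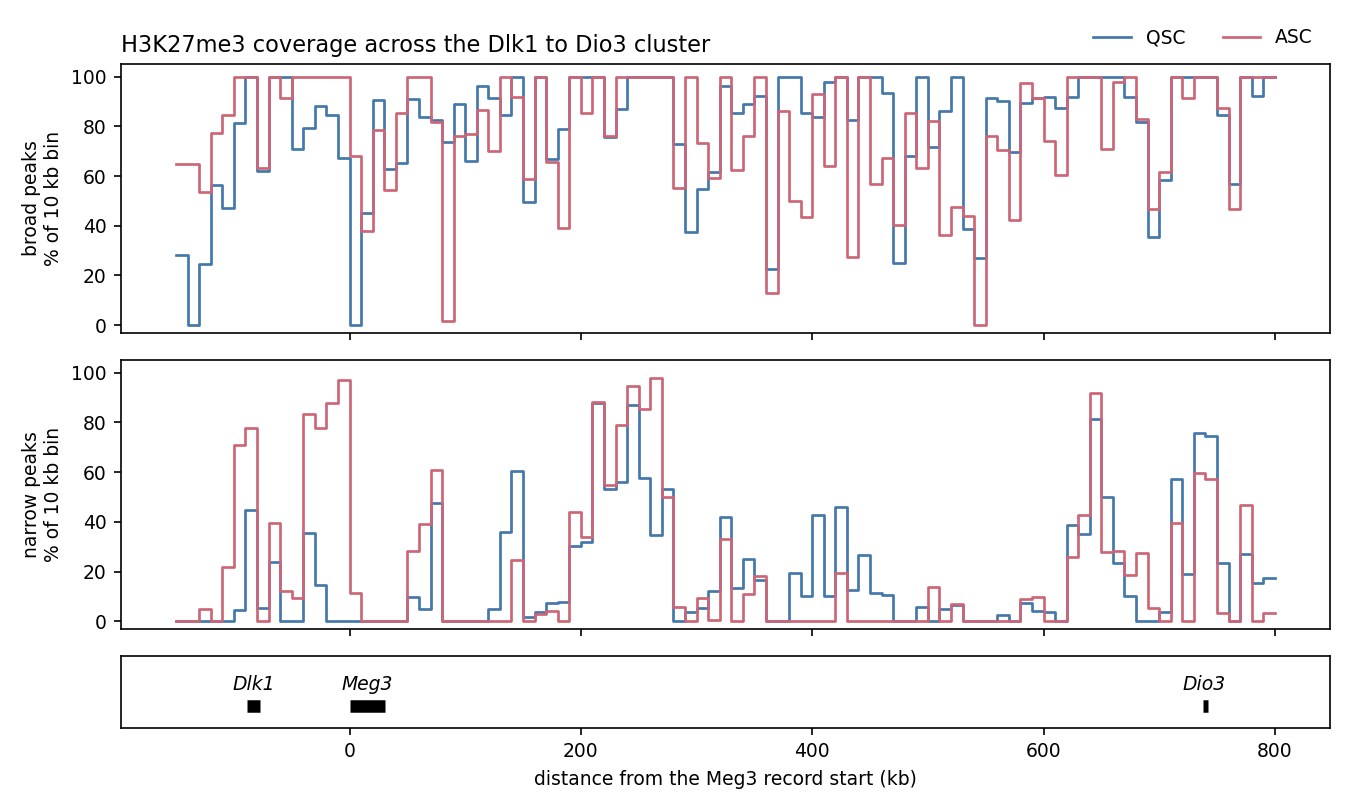
H3K27me3 coverage of 10 kb bins across the Dlk1 to Dio3 cluster by broad peaks (top) and narrow peaks (middle), in percent of each bin against distance from the Meg3 start in kb, with 1 line per state and the gene records below. The ASC line of the middle panel is high between Dlk1 and Meg3, reaching 96.8% next to the Meg3 start where the QSC line is at 0%, and between Meg3 and Dio3 the lines interleave.

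Grb10 carried both marks in both states. It encodes an adaptor protein that dampens signalling from insulin and insulin-like growth factor receptors, and it lies on the minus strand of chromosome 11 (11930499 to 12037428). Its start at 12037420, with the CpG-dense sequence above, was inside a short H3K4me3 peak, 454 bp long in QSC and 433 bp long in ASC. The same base lay inside H3K27me3 broad peaks that ran for 35746 bp in QSC and for 60367 bp in ASC. Joined H3K4me3 domains at Grb10 spanned 3482 bp (QSC) and 6260 bp (ASC), a log2 ratio of 0.85. The highest H3K4me3 fold at Grb10 was 8.23 among QSC peaks and 21.3 among ASC peaks.

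H3K27me3 broad peaks covered 53.4% of the Grb10 window in QSC and 56.9% in ASC, and narrow peaks 12.1% and 20.5%. The narrow peaks flanked the start, the nearest being 239 bp upstream in QSC and 253 bp in ASC, with folds of 7.17 and 6.68. The H3K4me3 narrow peak nearest to the downstream start, at 12027971, was 6977 bp away in QSC and 4928 bp in ASC. In ASC the downstream start lay inside an H3K27me3 narrow peak of 9279 bp with a fold of 7.16. In QSC the H3K27me3 narrow peak nearest to it was 278 bp away with a fold of 4.59. H3K27me3 broad peaks covered the downstream start in both states, and from the broad H3K4me3 lists a weak QSC peak with a fold of 1.47 lay over it. The upstream start thus lay under H3K4me3 narrow peaks in both states and the downstream start under none, with H3K27me3 broad peaks over both.

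Overlapping peaks of both marks, an H3K4me3 narrow peak crossed by an H3K27me3 broad peak in the window, were found at Grb10 and Peg3 in QSC and at Grb10, Meg3 and Mest in ASC. Of all genes, 5.33% had such an overlap in QSC and 11.2% in ASC, with 0.573% in QSC only (Peg3 of the members) and 6.45% in ASC only (Meg3 and Mest). The overlap counted for Peg3 lies at the H3K4me3 peak of its neighbour Zim1, not at Peg3 itself. With narrow H3K27me3 peaks the overlap was found at Grb10 in QSC, and at Grb10 and Meg3 in ASC, against 1.82% and 5.94% of all genes. Both marks anywhere in the window, a looser count, were found at 6 members in QSC and 7 in ASC, against 28.7% and 29.7%. Among protein-coding genes that looser share was 47.1% in QSC and 47.6% in ASC. Their share with overlapping peaks, by broad H3K27me3 peaks, was 8.24% and 17.3%.

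Mest differed between its starts. It encodes a paternally expressed protein of the alpha/beta hydrolase fold and lies at chromosome 6, 30733506 to 30748466. The downstream start, at 30738050, was inside an H3K4me3 peak in both states, of 2305 bp with a fold of 5.08 in QSC and 2196 bp with a fold of 7.77 in ASC. A second ASC peak of 1252 bp, with a fold of 4.33, lay between the starts, and the joined domain spanned 2305 bp (QSC) and 4267 bp (ASC). Without joining, the log2 ratio of the longest peak was −0.07, so the longer ASC domain rests on the added peak. The upstream start at 30733506 had no H3K4me3 narrow peak over it, and the nearest was 3724 bp away in QSC and 1633 bp in ASC.

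H3K27me3 covered 0% of the Mest window in QSC and 25.4% in ASC. The ASC broad peak over the upstream start was 7973 bp, with a fold of 1.82 and a −log10 q of 0.57, and it ended just past the downstream start. A narrow peak of 353 bp, with a fold of 3.07 and a −log10 q of 3.23, lay 108 bp before the upstream start. In QSC the nearest broad peak was 17309 bp from that start and the nearest narrow peak 209200 bp. The ASC broad peak at Mest had a lower −log10 q than the 4.30 of that at Meg3, against a list median of 0.38, and 69.8% of peaks in its list had a lower fold.

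**Figure D4:**
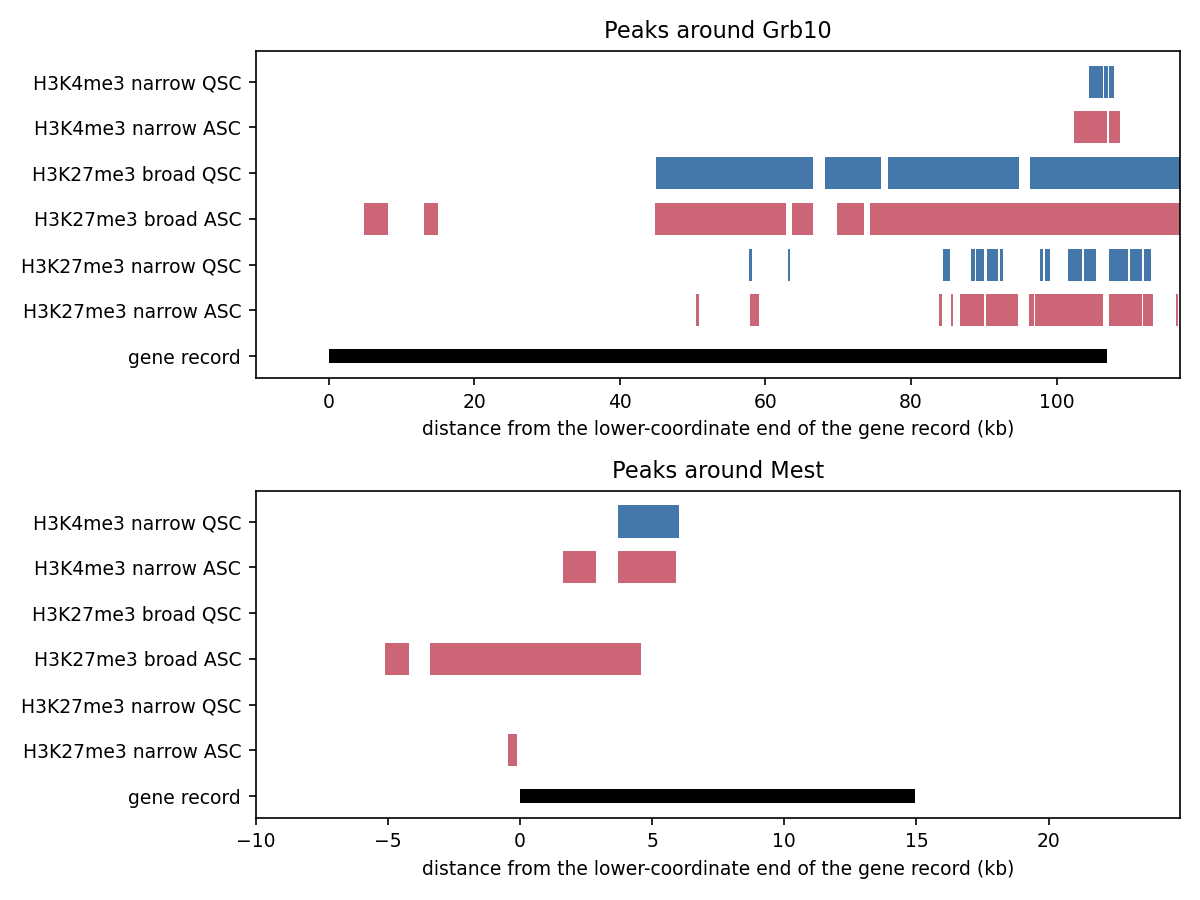
Peaks of each mark, list and state over Grb10 (top) and Mest (bottom) with 10 kb either side (x axis in kb from the lower-coordinate end of the record; blocks drawn to scale; Grb10 is transcribed from right to left). At Grb10 both marks lie over the right end in both states, and at Mest H3K27me3 blocks are present in the ASC rows only.

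H19, Plagl1, Peg3, Peg10 and Sgce had H3K4me3 at their ends and no H3K27me3 call there, and broad H3K27me3 peaks covered from 0% to 17.5% of their windows. H19 (chromosome 7, 142575530 to 142578146) is the maternally expressed noncoding RNA that hosts Mir675. Its QSC peaks were 259, 217 and 600 bp, with folds from 3.99 to 5.01, and its single ASC peak was 2120 bp with a fold of 6.11. The joined H19 domain spanned 1415 bp (QSC) and 2120 bp (ASC), and in both states the peaks reached Mir675. H3K27me3 covered 0% of the H19 window in QSC and 17.5% in ASC, in 2 broad peaks outside the gene, the nearer 2150 bp away with a fold of 1.88, and no narrow peak covered it in either state. In the same cluster, broad H3K27me3 peaks covered 82.0% of the window of Igf2, the paternally expressed growth factor, in QSC and 86.4% in ASC.

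Plagl1 (chromosome 10, 13090832 to 13131694) encodes a zinc finger transcription factor that regulates other imprinted genes. Its H3K4me3 peak, shared with the noncoding gene Hymai, was 2043 bp with a fold of 9.92 in QSC and 2819 bp with a fold of 16.4 in ASC. H3K27me3 broad peaks covered 5.02% of the Plagl1 window in QSC and 4.10% in ASC. None of them reached the start, and the nearest broad peak was 5002 bp from it in QSC and 19260 bp in ASC. Plagl1 thus had H3K4me3 at its start without H3K27me3 in either state.

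Peg3 (chromosome 7, 6703892 to 6730462) encodes a paternally expressed zinc finger protein found in stem and progenitor cells of several tissues. Its start at 6730419 lay inside an H3K4me3 peak shared with the divergent gene Usp29, of 4280 bp with a fold of 14.3 in QSC and 4249 bp with a fold of 16.6 in ASC. The joined Peg3 domain spanned 4760 bp (QSC) and 4249 bp (ASC), a log2 ratio of −0.16, the difference being a small added peak of 394 bp in QSC. Without joining, the main peak was of nearly the same length in the states. The QSC call for H3K27me3 rests on peaks of 600 and 846 bp more than 5 kb beyond the record, covering 3.10% of the window, with 0% in ASC.

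Peg10, a gene derived from a retrotransposon, and Sgce, which encodes epsilon-sarcoglycan, share a divergent start region on chromosome 6 and therefore the same H3K4me3 peaks. In QSC these were 721 bp with a fold of 5.30 on the Sgce side and 1400 bp with a fold of 3.77 on the Peg10 side. In ASC a single peak of 3407 bp with a fold of 10.3 spanned both genes. Joined, these spanned 2324 bp (QSC) and 3407 bp (ASC). H3K27me3 broad peaks covered 10.4% of the Peg10 window in QSC and 14.5% in ASC, and 3.90% and 11.0% of the Sgce window, with no narrow peak in either state.

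**Figure D5:**
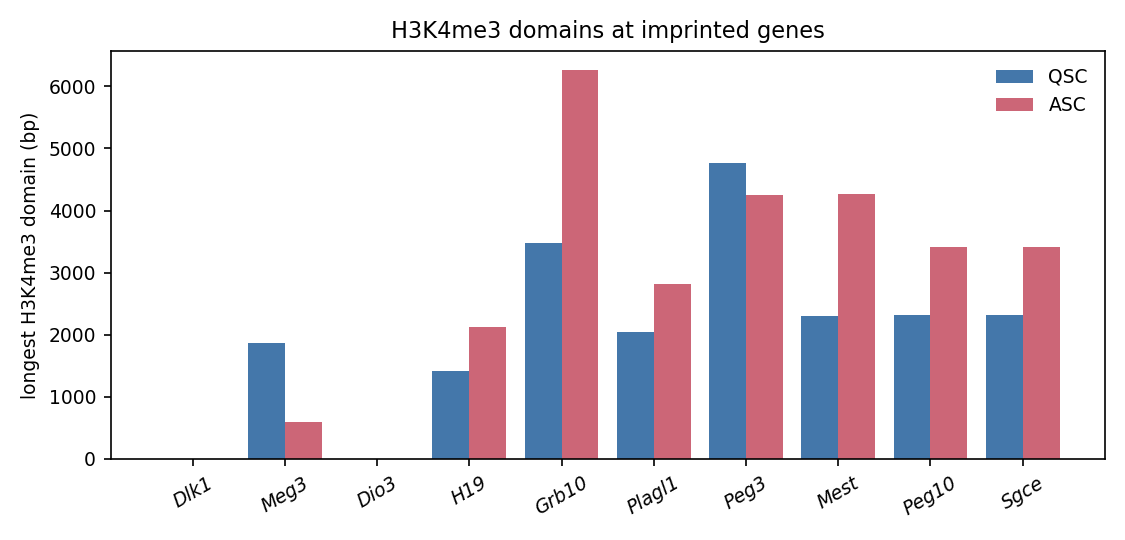
Longest H3K4me3 domain in each member's window in bp (narrow peaks joined where no more than 1 kb apart), with 1 bar per state from a pooled list. The ASC bar is the shorter at Meg3 and Peg3 and the longer at the other 6 members with a domain, and Dlk1 and Dio3 have none.

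For the 8 members that had an H3K4me3 domain in each state, the log2 ratio of domain lengths (ASC over QSC) had a median of 0.55, beside 0.53 for 19143 genes with a domain in both states. Domains were shorter in ASC at 2 members, Meg3 at −1.66 and Peg3 at −0.16, and at 9.76% of all genes. The other 6 members lay between 0.46 at Plagl1 and 0.89 at Mest, with Peg10 and Sgce counted separately though they share 1 domain. With the broad H3K4me3 lists, which hold 184538 peaks in QSC and 29297 in ASC, the members' median was −0.25, and Grb10 (−0.079), Plagl1 (−0.29), Peg10 and Sgce (−0.52) had the shorter domain in ASC. The ASC narrow list had the longer and higher H3K4me3 peaks by its medians, with a median length of 2028 bp against 1512.5 bp in QSC and a median fold of 16.3 against 10.4. The members' median is thus close to that of all genes, with Meg3 far below it.

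The median difference in H3K27me3 broad coverage over the 10 members, ASC minus QSC, was 3.80 percentage points of the window, beside 0.00 for all genes. Coverage was higher in ASC at 7 members (Dlk1, Meg3, H19, Grb10, Mest, Peg10 and Sgce) and at 39.0% of all genes. Peg10 and Sgce were counted separately, though the ASC broad peaks in the Peg10 window lie in the Sgce record. Coverage was lower in ASC at Peg3 and Plagl1, and at 31.2% of all genes. The difference at Meg3 was matched or exceeded at H19 and Mest and, these included, at 13.1% of all genes. The members' windows had a median of 40766 bp against 25956 bp for all genes. With the narrow lists the members' median difference was 0.00, with 5 members at 0% in both states.

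Markers of the labelled cell type were checked by H3K4me3 at the record ends. All 10 muscle stem cell markers, Pax7 and Myf5 among them, were called in both states. The share of all genes called this way was 28.9% in QSC and 30.8% in ASC, and that of protein-coding genes 53.0% and 55.7%. Of 5 markers each, endothelial cells had 2 in QSC and 3 in ASC, immune cells 0 and 1, fibro-adipogenic cells 2 and 2, and pericytes and smooth muscle 4 and 3. Kdr and Tek (endothelial), Dpt and Cd34 (fibro-adipogenic), and Acta2, Cspg4 and Kcnj8 (pericyte and smooth muscle) were called in both states. Ptprc (immune), Pecam1 (endothelial), Pdgfra (fibro-adipogenic) and Rgs5 (pericyte) were called in neither. The part of other cells in the members' values was not tested.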

How the data were processed

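The data used were peak lists for H3K4me3 and H3K27me3 in QSC and ASC, of a narrow and of a broad kind, 8 lists in all. Per the labels' protocols, sonicated chromatin was bound by antibody, and the bound DNA was tagmented (ChIPmentation) and sequenced as read pairs. The submitters' processing notes name MACS2 2.1.1, Bowtie2 2.3.2, bedtools 2.26.0, SAMtools 1.3, Picard 2.9.2, Trimmomatic 0.36 and bcl2fastq 2.19, with mm10 as build and no settings. The values deposited by the authors with every peak are its fold enrichment (a linear ratio over background), a score (not used here), and p and q on a −log10 scale. A list serves both replicates of its group, so it was treated as pooled. Its depth in reads is unknown, so intervals are left out. Signal tracks were not used here.

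Gene records and starts were taken from RefSeq tables (GRCm38.p6), and no genome sequence was used. Calls, domains and coverage were computed with Python 3.11.15, numpy 2.4.6 and pandas 2.3.3. H3K4me3 was called from narrow peaks (at least 1 bp) and H3K27me3 from broad peaks (at least 500 bp), in the record plus 10 kb either side and within 1 kb of each record end. Counting was tested on simulated data. Every member is named. Other imprinted genes are named if they neighbour a member, if their window call differs between states, if they have the 3 highest H3K4me3 folds of a state, or if they share a member's 4 calls at the record ends; Nnat was named after its values were seen. The members and lists were chosen with earlier results of these data known.

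Alternatives were other windows, the other list of each mark, stricter peaks, equal numbers of peaks, larger overlaps and other merging. A q of at most 0.05 and the count at annotated starts were added after seeing the data.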

Additional observations from a re-analysis of the deposited data

How the results depend on the processing

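No paired analysis was possible because each peak list pools the replicates of its group. No single replicate could be left out for the same reason. With the gene record alone, H3K27me3 was called at 5 members in QSC, 0 in QSC only and 1 in ASC only (Mest); both marks were called at 3 and 4 members in QSC and ASC, and overlapped at 1 in QSC (Grb10) with 0 in QSC only. With 5 kb flanks the QSC-only H3K27me3 call of Peg3 was lost (0), and overlapping peaks remained at 1 member in QSC and 0 in QSC only. With 20 kb flanks 0 members had H3K27me3 in ASC only. At record ends, H3K27me3 was called in ASC only at 2 members (Meg3 and Mest) with 500 bp windows and with the annotated start alone, which covers 7 members, and at 2 with an overlap of 1000 bp; H3K4me3 was called in ASC only at 1 (Mest) with 2.5 kb windows. With the H3K4me3 broad lists, overlapping peaks were called at 5 members in QSC and 6 in ASC, and H3K4me3 at a record end at 1 in QSC only and 1 in ASC only. The median log2 domain ratio was then −0.25, with Plagl1 at −0.29, Grb10 at −0.079, Peg10 and Sgce at −0.52 and Meg3 at −0.84; the broad lists hold 184538 peaks in QSC and 29297 in ASC. With the H3K27me3 narrow lists the calls were 3, 4, 0 and 1 (QSC, ASC, QSC only, ASC only), both marks 1 and 2, overlapping peaks 1 in QSC, 0 in QSC only and 1 in ASC only, and the median coverage difference 0.0. By these lists 12.5% of all genes in QSC and 16.9% in ASC had both marks. Overlapping peaks were found at 0.258% of all genes in QSC only and at 4.38% in ASC only.

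Stricter peaks removed most H3K27me3 calls. At a −log10 q of at least 5, the window and the ends held 0 members in QSC and 1 in ASC (Dio3), both marks and overlapping peaks were at 0 in each state, and the median coverage difference was 0.0. At a fold of at least 3, H3K27me3 was called at 1 member in QSC (Dio3) and 3 in ASC (Dlk1, Meg3 and Dio3), at windows and ends alike, with 2 in ASC only and 0 in QSC only. Both marks, overlapping, were then called at 0 members in QSC and 1 in ASC (Meg3), with a median difference of 0.0. At a q of at most 0.05, chosen after seeing the data, H3K27me3 was called at 2 members in QSC and 4 in ASC, 0 in QSC only, with 2 in QSC and 2 in ASC only at the ends; both marks were called at 1 and 2 members, overlapping at 1 in QSC, 0 in QSC only and 1 in ASC only, with a median difference of 0.0. With equal numbers of peaks, H3K4me3 was called in QSC only at 1 member (Meg3), in the window and at the ends, H3K27me3 in QSC only at 0, and overlapping peaks at 1 in QSC, 0 in QSC only and 1 in ASC only; Plagl1 then had a coverage difference of 4.10 points and Mest a domain ratio of −0.070, as it had with peaks not merged. Coverage of the record alone gave a median difference of 2.099 points. The share of all genes under the other windows, cutoffs and peak numbers is not given, so these counts have no background beside them. The same holds for overlapping peaks and record ends from the H3K4me3 broad lists. The cause of these shifts was not tested. Among the recomputed counts and medians over members, 73 moved, 1 changed sign and 137 did neither.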

Other observations

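Other imprinted genes of the mouse were read in the same way, and 57 of a list of 58 matched an annotated gene. H3K4me3 was called in the window of 45 of them in QSC and 46 in ASC, beside 39.0% and 41.1% of all genes. Of protein-coding genes, 62.7% and 65.2% were called. H3K27me3 was called at 46 and 47 of them, beside 63.0% and 62.6%. Their windows had a median of 64301 bp against 25956 bp for all genes. Calls of H3K4me3 in a single state were Rasgrf1 and Slc22a3 in QSC, against 0.647% of all genes, and Asb4, Ascl2 and Klf14 in ASC, against 2.82%. Asb4, a neighbour of Peg10 and Sgce, had an ASC domain of 2671 bp with a fold of 6.86. Klf14, a transcription factor gene next to Mest, had 100% of its window under H3K27me3 broad peaks in both states and an ASC H3K4me3 domain of 748 bp. Calls of H3K27me3 in QSC only were Slc38a4, Tssc4 and Zim1, against 6.74% of all genes. Those in ASC only were Calcr, Ddc, Igf2r and Inpp5f, against 6.32%. Calcr, the calcitonin receptor gene of quiescent satellite cells, had 0% of its window under H3K27me3 in QSC and 2.35% in ASC, with H3K4me3 domains of 3727 and 3215 bp. Next to H19, the insulin gene Ins2 had 27.8% of its window under H3K27me3 in QSC and 55.4% in ASC and no H3K4me3 call, and Ppp1r9a, in the cluster of Peg10 and Sgce, had 13.1% and 0.39%. Casd1, Copg2, Cobl, Ddc, Begain and Phactr2, the other neighbours listed, had H3K4me3 in both states.

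At a listed start, Nnat, a paternally expressed proteolipid gene, was the other imprinted gene that, like Meg3, had H3K4me3 in both states and H3K27me3 by broad and narrow peaks in ASC only. H3K27me3 broad peaks covered 4.50% of the Nnat window in QSC and 53.3% in ASC, and narrow peaks 0% and 18.7%. Its longest H3K4me3 domain spanned 2298 bp (QSC) and 3402 bp (ASC), the opposite order to Meg3. The highest H3K4me3 folds among these genes were 24.9 at H13, 23.3 at Gnas and 22.7 at Nnat in QSC, and 36.1 at Ube3a and 34.7 at both H13 and Gnas in ASC. Domain lengths at the 43 of these genes with a domain in each state had a median log2 ratio (ASC over QSC) of 0.32. The median for all genes with a domain in both states was 0.53. Domains were shorter in ASC at 9 of the 43, against 9.76% of all such genes. Over the 57 other imprinted genes, the median difference in H3K27me3 coverage was 0.00 percentage points, as it was for all genes. Coverage was higher in ASC at 24 and lower at 24, against 39.0% and 31.2% of all genes.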
